A study of Mus musculus with 16 samples.

Results

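The sterol and fatty acid synthesis genes are 30 genes, of 20490 in the deposited table, taken by symbol for their known roles in making cholesterol and fatty acids. They comprise 4 genes of SREBP factors and sterol sensing, 8 of the mevalonate pathway, 10 of the sterol branch and 8 of fatty acid synthesis and desaturation. The RNA came from RAW264.7 cells, a mouse macrophage line that the labels call an osteoclast precursor and that forms osteoclast-like cells when given RANKL, the cytokine that drives osteoclast formation. After 12 h of attachment, cells received extracellular vesicles (EV) of PC3M, a metastatic human prostate cancer line, at 30 µg/mL together with mouse RANKL at 10 ng/mL (EV+RANKL), EV at 30 µg/mL without RANKL, RANKL at 10 ng/mL without EV, or PBS, and were collected after 72 h or 48 h. Each of these 8 groups has 2 libraries, 16 in all, and every group shares the 1 cell line and a medium with fetal bovine serum. Nothing in the labels states that both libraries of a group are separate cultures, so the p-values measure the spread between libraries of a group, which may be technical. For each gene that spread was estimated once over all 8 groups, and not from the groups compared alone. The column of 1 EV+RANKL library at 48 h carries a plus sign but not the letter for RANKL; since plus signs occur in EV+RANKL names alone, it was taken as replicate 2 of that group.

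Cholesterol is made from acetyl-CoA by way of mevalonate, the isoprenoids, squalene and lanosterol, and fatty acids are made from citrate-derived acetyl-CoA, then elongated and desaturated. Both routes are under SREBP transcription factors, which INSIG and SCAP hold in the endoplasmic reticulum when sterols are plentiful and which are cleaved and enter the nucleus when sterols are scarce. In macrophages the oxysterol receptor LXR raises Srebf1 and sterol efflux genes, and in osteoclasts the enzyme encoded by Fdps is the target of nitrogen-containing bisphosphonates.

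Levels are given as reads per kilobase of gene, scaled to library size (RPKM), and changes as differences on the log2(RPKM + 1) scale, which understate the changes of low genes; that unit and base were inferred from the deposited values. A change is called when limma's adjusted p over all 10365 tested genes is under 0.05. Of the 30 genes, 29 were tested; Tm7sf2, a sterol C14-reductase gene at 0.366 to 1 RPKM, did not reach 1 RPKM in at least 2 libraries. Read totals are not in the table, but the worth of 1 read in the library where it was lowest was 0.918 of that where it was highest. All 10 macrophage markers were in the table and 9 were tested, with summed levels of 2110 to 3320 RPKM in libraries with RANKL and 6110 to 8260 RPKM in libraries without it. Lyz2 led that sum, with group means of 834 to 1820 RPKM with RANKL and 4470 to 5760 RPKM without it. Not every marker moved with the sum. Spi1 had 111 to 127 RPKM with RANKL and 78.9 to 99.7 RPKM without it, and Csf1r at 72 h had 329 RPKM in EV+RANKL and 247 RPKM in PBS. The 10 osteoclast markers summed to 280 to 1600 RPKM in libraries with RANKL, 83.7 to 126 RPKM in EV libraries and 17.5 to 19.4 RPKM in PBS libraries. Not every one of them was higher with EV. Nfatc1 had 25.4 RPKM in EV and 11.3 RPKM in PBS at 72 h, and 48.2 and 12 RPKM at 48 h. Dcstamp had 2.28 RPKM in EV and 2.49 RPKM in PBS at 72 h, and 1.72 and 2.04 RPKM at 48 h. Of markers of other cells, 4 of 7 epithelial, 6 of 7 stromal, 1 of 5 adipocyte and 1 of 4 hepatocyte genes were in the table. Their summed levels reached 0.302, 1.52, 0.0387 and 0.109 RPKM, in that order. For other blood cells 5 of 10 genes were in the table, with a sum of up to 18 RPKM, led by Cd83 at up to 14.9 RPKM.

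Promoter sequences are shown for the genes on which the results below turn most, Dhcr7 and Mvd, and for Srebf1, which encodes an SREBP itself. A sequence is also shown for Hmgcs1, the only 1 of 23 searched genes with an exact match to the sterol regulatory element letters TCACNCCAC. Each is the 150 bases before an annotated transcript start in RefSeq, build GRCm38.p6, 5′ to 3′ on the gene's strand; the build behind the deposited values is not given in the sources used here. They lie at chr7:143830064-143830213 on the plus strand (Dhcr7), chr8:122443423-122443572 on the minus strand (Mvd), chr11:60210472-60210621 on the minus strand (Srebf1) and chr13:119690201-119690350 on the plus strand (Hmgcs1). Capitals mark the sterol regulatory element TCACNCCAC, the NF-Y box CCAAT and the Sp1 box GGGCGG on either strand.
Dhcr7: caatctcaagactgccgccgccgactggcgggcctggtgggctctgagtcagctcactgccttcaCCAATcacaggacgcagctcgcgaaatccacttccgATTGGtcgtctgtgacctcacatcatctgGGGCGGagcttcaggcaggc
Mvd: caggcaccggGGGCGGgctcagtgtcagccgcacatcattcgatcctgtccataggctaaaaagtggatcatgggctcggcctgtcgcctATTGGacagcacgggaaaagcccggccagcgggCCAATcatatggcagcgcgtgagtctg
Srebf1: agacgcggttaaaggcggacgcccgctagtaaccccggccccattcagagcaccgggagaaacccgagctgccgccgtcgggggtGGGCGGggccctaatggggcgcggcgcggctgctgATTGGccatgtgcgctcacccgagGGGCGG
Hmgcs1: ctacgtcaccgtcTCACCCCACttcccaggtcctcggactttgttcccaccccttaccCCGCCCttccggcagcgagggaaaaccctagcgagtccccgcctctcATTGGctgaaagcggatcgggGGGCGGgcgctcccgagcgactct
Dhcr7 and Mvd have 2 NF-Y boxes and 1 Sp1 box each in these stretches, Srebf1 has 1 NF-Y box and 2 Sp1 boxes, and Hmgcs1 has 1 sterol regulatory element, 1 NF-Y box and 2 Sp1 boxes. Dhcr7 and Srebf1 have 3 annotated starts each, and the one shown was chosen for having the most matches. In RefSeq windows of 250 bases before to 50 bases after the start, 23 of the 30 genes were matched, with 28 starts. CCAAT was in 20 of these 28 windows (71.4%), against 37.4% of all 32851 windows. GGGCGG was in 21 of 28 (75%), against 35.7% of all, and TCACNCCAC in 1 of 28 (3.57%), against 1.24% of all. These are matches of letters and not measured binding. Looser forms of the sterol regulatory element were not searched, so a gene without an exact match may still have one.

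The gene set had an uneven spread between the libraries of a group, which bears on every comparison that follows. In EV replicate 1 at 72 h all 30 genes were below replicate 2 of the same group, with a median difference of -0.48 on the log2 scale. Over all tested genes the median absolute difference between those libraries was 0.18, and replicate 1 was the higher in 36.7% of these genes. The SE of a gene rests on the spread of all groups together, so it is not specific to EV at 72 h. In PBS at 48 h replicate 1 was above replicate 2 in 29 of 30 genes, by a median of 0.19, and in EV at 48 h in 25 of 30 genes, by a median of 0.16. Of all tested genes, replicate 1 was the higher in 44.8% in PBS and 42.2% in EV at 48 h. Both RANKL libraries at 48 h were low throughout, with 1 and 3 of 30 genes above their own median over the 16 libraries. Of all tested genes, 52.4% and 57.1% were above theirs in these libraries. EV libraries had 3 and 26 genes above that median at 72 h and 27 and 24 at 48 h, and PBS libraries had 20 and 27 at 72 h and 20 and 9 at 48 h. The shares of all tested genes in EV were 46.9% and 60.4% at 72 h and 47.8% and 54.2% at 48 h. In PBS they were 45.2% and 46.8% at 72 h and 43% and 45.3% at 48 h. Mitochondrially encoded genes held 22.7% of summed RPKM in EV replicate 1 at 72 h and 19.7% in replicate 2, and ribosomal protein genes 10.6% and 10.2%; their part in the difference was not tested.

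**Figure D1:**
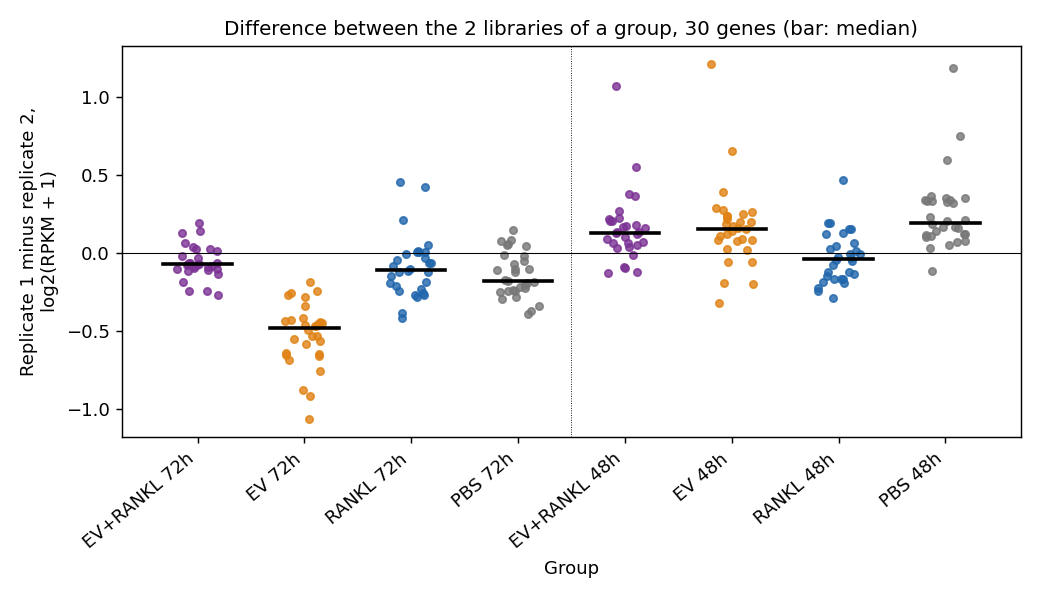
Difference between replicate 1 and replicate 2 of each group in log2(RPKM + 1), with 1 point for each of the 30 genes, a bar at the median and a dotted line between 72 h and 48 h. EV at 72 h stands apart, with all 30 points below 0 and a median of -0.48.

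**Figure D2:**
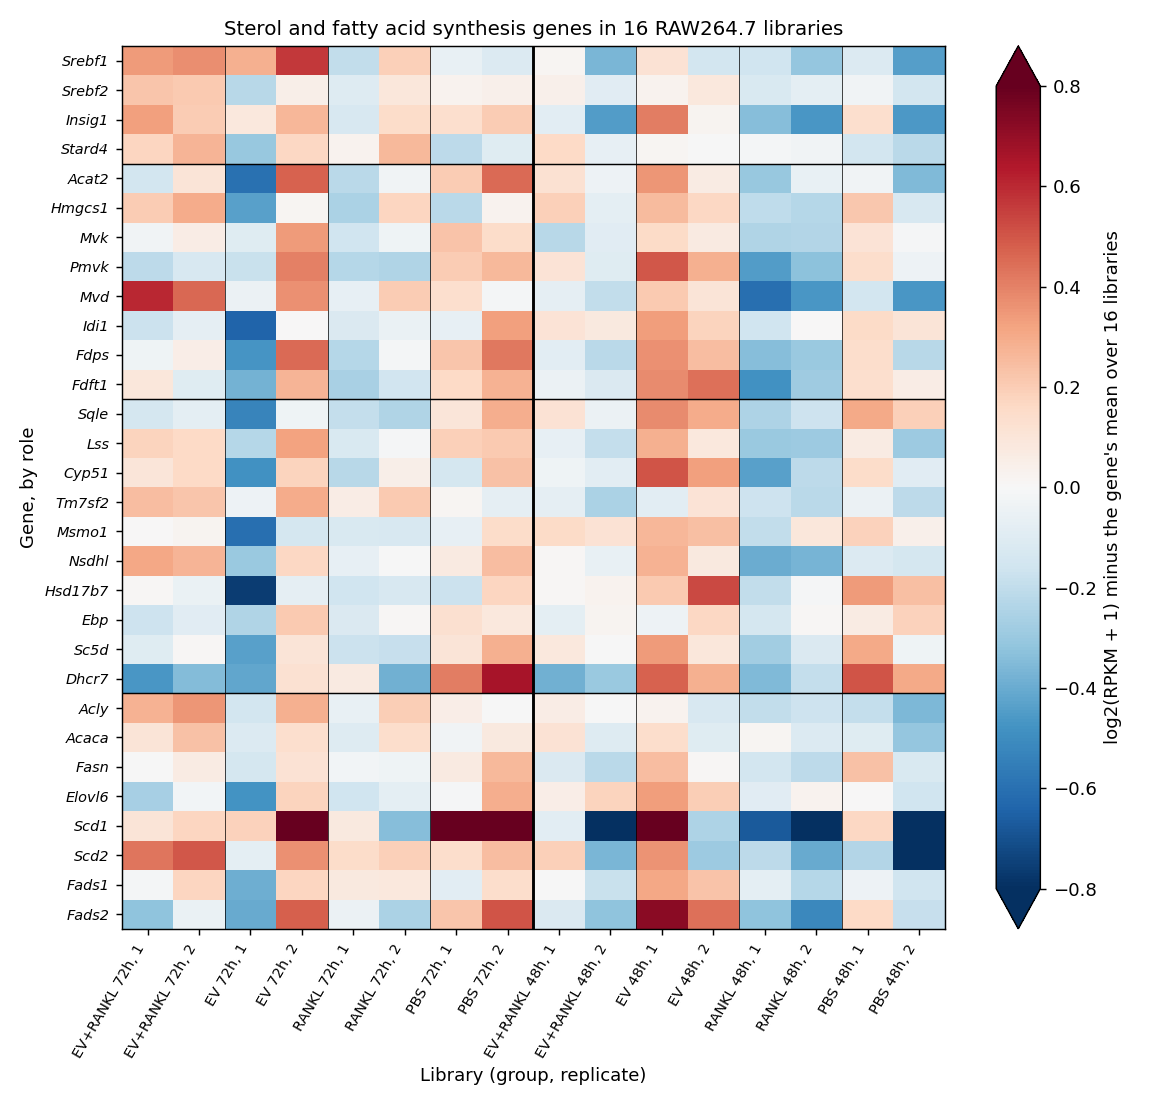
The 30 genes by role (rows) in the 16 libraries (columns), coloured by log2(RPKM + 1) minus the gene's mean over all libraries; colours saturate beyond 0.8 in either direction, and the thick line divides 72 h from 48 h. EV replicate 1 at 72 h and both RANKL libraries at 48 h are blue over most genes, Dhcr7 is blue in most libraries with RANKL, and Scd1 has the widest range.

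Among the regulators, Srebf1 was called higher with EV at 72 h and with EV+RANKL at 72 h, while Srebf2 was not called in any of the 16 comparisons. Srebf1 encodes SREBP-1, and transcripts from its annotated starts were not told apart in these levels. At 72 h Srebf1 had 21.4 and 21.9 RPKM in EV+RANKL libraries, 20.5 and 25.2 RPKM in EV libraries, 14.4 and 19.1 RPKM in RANKL libraries and 15.9 and 15.4 RPKM in PBS libraries. The 48 h values were 16.8 and 12.7 RPKM in EV+RANKL libraries, 18.1 and 15.0 RPKM in EV libraries, 14.8 and 13.3 RPKM in RANKL libraries and 15.4 and 12.0 RPKM in PBS libraries. All 4 libraries with EV at 72 h were above all 4 without EV at that time, as in 3.82% of all tested genes, and at 48 h the groups overlapped. Against PBS at 72 h its log2 change was 0.44 ± 0.17 (SE; limma adjusted p = 0.0474) with EV+RANKL, and the call was lost without any 1 of its 4 libraries (adjusted p up to 0.16). With EV it was 0.51 ± 0.17 (SE; limma adjusted p = 0.0496), lost without any 1 of its 4 libraries (adjusted p up to 0.23). With RANKL it was 0.08 ± 0.17 (SE; limma adjusted p = 0.778), which was not called. Between EV+RANKL at 72 h and at 48 h Srebf1 differed by 0.53 ± 0.17 (SE; limma adjusted p = 0.0237), lost without EV+RANKL 48 h replicate 2, EV+RANKL 72 h replicate 1 or EV+RANKL 72 h replicate 2 (adjusted p up to 0.223).

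Srebf2 encodes SREBP-2, the factor that acts mainly on sterol genes, and it varied little. Its 72 h levels were 44.1 and 43.7 RPKM in EV+RANKL libraries, 32.1 and 38.9 RPKM in EV libraries, 34.9 and 40.2 RPKM in RANKL libraries and 38.3 and 38.7 RPKM in PBS libraries. At 48 h they were 38.7 and 35.3 RPKM in EV+RANKL libraries, 38.3 and 39.9 RPKM in EV libraries, 34.5 and 35.6 RPKM in RANKL libraries and 36.9 and 33.9 RPKM in PBS libraries. Both EV+RANKL libraries at 72 h stood above every other library, as in 7.6% of all tested genes, but against PBS at 72 h the log2 change of 0.18 ± 0.10 (SE; limma adjusted p = 0.171) did not pass. Against EV at 72 h it was 0.31 ± 0.10 (SE; limma adjusted p = 0.0521), also not called. After quantile normalization both of these differences of Srebf2 were called.

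Insig1 encodes a retention protein of the SREBP system that is itself an SREBP target. Its levels at 72 h were 21.5 and 19.6 RPKM in EV+RANKL libraries, 18.0 and 20.5 RPKM in EV libraries, 15.4 and 18.9 RPKM in RANKL libraries and 18.6 and 19.6 RPKM in PBS libraries. At 48 h they were 15.9 and 12.1 RPKM in EV+RANKL libraries, 22.8 and 17.1 RPKM in EV libraries, 13.1 and 12.0 RPKM in RANKL libraries and 18.7 and 12.0 RPKM in PBS libraries. Between EV+RANKL at 72 h and at 48 h the Insig1 log2 change of 0.53 ± 0.19 (SE; limma adjusted p = 0.0422) was called. That call was lost without EV+RANKL 48 h replicate 2, EV+RANKL 72 h replicate 1 or EV+RANKL 72 h replicate 2. Against PBS, Insig1 differences were 0.099 with EV+RANKL, 0.007 with EV and -0.16 with RANKL at 72 h, none of them called. Stard4, a carrier of sterols between membranes, had 10.5 and 11.4 RPKM in EV+RANKL libraries, 7.31 and 10.5 RPKM in EV libraries, 9.45 and 11.3 RPKM in RANKL libraries and 7.85 and 8.56 RPKM in PBS libraries at 72 h. At 48 h it had 10.4 and 8.78 RPKM in EV+RANKL libraries, 9.36 and 9.22 RPKM in EV libraries, 9.13 and 9.04 RPKM in RANKL libraries and 8.26 and 7.81 RPKM in PBS libraries. The 8 libraries with RANKL were all above the 4 PBS libraries for Stard4, as were 9.13% of all tested genes. At 72 h the change against PBS was 0.38 ± 0.14 (SE; limma adjusted p = 0.0397) with EV+RANKL, which was called and then lost without any 1 of its 4 libraries (adjusted p up to 0.163), and 0.30 ± 0.14 (SE; limma adjusted p = 0.145) with RANKL, which was not.

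In the mevalonate pathway Mvd was highest in EV+RANKL at 72 h and was called higher there than in PBS, whereas Hmgcs1 had no call. Mvd encodes mevalonate diphosphate decarboxylase, which makes isopentenyl diphosphate. Mvd levels at 72 h were 30.3 and 27.3 RPKM in EV+RANKL libraries, 18.9 and 25.6 RPKM in EV libraries, 18.7 and 22.7 RPKM in RANKL libraries and 21.6 and 19.3 RPKM in PBS libraries. At 48 h they were 18.5 and 16.9 RPKM in EV+RANKL libraries, 22.8 and 21.1 RPKM in EV libraries, 12.6 and 13.9 RPKM in RANKL libraries and 17.6 and 13.9 RPKM in PBS libraries. Both EV+RANKL libraries at 72 h were above all the others, as in 7.6% of all tested genes. Both RANKL libraries and PBS replicate 2 at 48 h were the lowest. The log2 change of EV+RANKL against PBS at 72 h was 0.48 ± 0.15 (SE; limma adjusted p = 0.0212), lost without EV+RANKL 72 h replicate 1 or PBS 72 h replicate 2 (adjusted p up to 0.13). With EV at 72 h the Mvd difference was 0.10 ± 0.15 (SE; limma adjusted p = 0.645) and with RANKL 0.01 ± 0.15 (SE; limma adjusted p = 0.976), neither of them called. At 72 h against 48 h Mvd rose by 0.67 ± 0.15 (SE; limma adjusted p = 0.00484) in EV+RANKL, a call lost without EV+RANKL 48 h replicate 2 or EV+RANKL 72 h replicate 1 (adjusted p up to 0.0537). In RANKL it rose by 0.60 ± 0.15 (SE; limma adjusted p = 0.0378), lost without RANKL 48 h replicate 1, RANKL 48 h replicate 2 or RANKL 72 h replicate 2 (adjusted p up to 0.225). The same difference, not called, was 0.004 ± 0.15 (SE; limma adjusted p = 0.984) in EV and 0.37 ± 0.15 (SE; limma adjusted p = 0.365) in PBS.

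Hmgcs1 encodes cytosolic HMG-CoA synthase, an early enzyme of the mevalonate pathway. At 72 h Hmgcs1 had 28.5 and 30.6 RPKM in EV+RANKL libraries, 18.0 and 25.0 RPKM in EV libraries, 20.6 and 27.9 RPKM in RANKL libraries and 21.1 and 25.2 RPKM in PBS libraries. Its 48 h levels were 28.3 and 23.3 RPKM in EV+RANKL libraries, 29.6 and 27.8 RPKM in EV libraries, 21.3 and 20.9 RPKM in RANKL libraries and 28.8 and 22.6 RPKM in PBS libraries. For EV+RANKL against PBS at 72 h, the Hmgcs1 log2 change of 0.35 ± 0.17 (SE; limma adjusted p = 0.128) did not pass. EV against PBS at 48 h gave 0.16 ± 0.17 (SE; limma adjusted p = 0.875), with PBS replicate 1 inside the range of the EV libraries. After quantile normalization Hmgcs1 was called higher in EV+RANKL at 72 h against PBS and against EV.

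Idi1 and Fdft1 were called lower in EV at 72 h than in EV at 48 h, a contrast in which 14.9% of all tested genes were called lower. Idi1 encodes isopentenyl diphosphate isomerase, and had 22.2 and 23.9 RPKM in EV+RANKL libraries, 15.8 and 25.2 RPKM in EV libraries, 23.1 and 24.2 RPKM in RANKL libraries and 23.98 and 31.8 RPKM in PBS libraries at 72 h. At 48 h Idi1 had 27.2 and 26.6 RPKM in EV+RANKL libraries, 31.95 and 28.6 RPKM in EV libraries, 22.4 and 25.3 RPKM in RANKL libraries and 28.1 and 27.2 RPKM in PBS libraries. EV replicate 1 at 72 h was the lowest Idi1 value of all 16, and EV replicate 2 at 72 h lay among the other libraries. The change of EV at 72 h against EV at 48 h was -0.57 ± 0.17 (SE; limma adjusted p = 0.0254), lost without EV 48 h replicate 1, EV 48 h replicate 2 or EV 72 h replicate 1 (adjusted p up to 0.25). Fdft1 encodes squalene synthase, which commits farnesyl diphosphate to sterols, and had 16.0 and 13.8 RPKM in EV+RANKL libraries, 11.3 and 18.2 RPKM in EV libraries, 12.3 and 13.3 RPKM in RANKL libraries and 16.8 and 18.3 RPKM in PBS libraries at 72 h. At 48 h Fdft1 had 14.4 and 13.7 RPKM in EV+RANKL libraries, 19.7 and 20.6 RPKM in EV libraries, 10.4 and 12.0 RPKM in RANKL libraries and 16.5 and 15.6 RPKM in PBS libraries. At 48 h the 4 Fdft1 values with RANKL were below the 4 without it, as in 13.5% of all tested genes, and at 72 h the EV values spanned nearly the whole range. The change of EV at 72 h against 48 h was -0.46 ± 0.16 (SE; limma adjusted p = 0.0433), lost without EV 48 h replicate 1, EV 48 h replicate 2 or EV 72 h replicate 1 (adjusted p up to 0.438). With RANKL against PBS the Fdft1 difference was -0.48 ± 0.16 (SE; limma adjusted p = 0.0618) at 48 h, which was not called.

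The other 4 genes of the mevalonate pathway had no call. Acat2, which encodes cytosolic acetoacetyl-CoA thiolase, ranged over 8.34 to 18.6 RPKM, with both its lowest and its highest value in EV at 72 h. Mvk, mevalonate kinase, ranged over 3.32 to 5.47 RPKM. At 48 h it was lower in all 4 libraries with RANKL than in the 4 without it, as in 13.5% of all tested genes. Pmvk, phosphomevalonate kinase, ranged over 12.7 to 25.5 RPKM, and its log2 change with RANKL against PBS was -0.46 ± 0.15 (SE; limma adjusted p = 0.0535) at 72 h and -0.44 ± 0.15 (SE; limma adjusted p = 0.0779) at 48 h. Fdps, farnesyl diphosphate synthase, ranged over 31.0 to 59.5 RPKM, and its differences from PBS were -0.31 with EV+RANKL, -0.33 with EV and -0.44 with RANKL at 72 h. Acat2 and Idi1 have close paralogs, and their levels are uncertain because the handling of reads that match several genes was not described.

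In the sterol branch Dhcr7 was the gene with the most calls, lower with RANKL at both times, and Sqle followed. Dhcr7 encodes 7-dehydrocholesterol reductase, the last step to cholesterol in the Kandutsch-Russell route, whose substrate is also the precursor of vitamin D. Dhcr7 at 72 h had 7.66 and 8.39 RPKM in EV+RANKL libraries, 7.95 and 12.0 RPKM in EV libraries, 11.6 and 8.17 RPKM in RANKL libraries and 14.9 and 17.9 RPKM in PBS libraries. The levels at 48 h were 8.14 and 8.73 RPKM in EV+RANKL libraries, 15.6 and 13.6 RPKM in EV libraries, 8.33 and 9.48 RPKM in RANKL libraries and 15.9 and 13.7 RPKM in PBS libraries. All 8 libraries with RANKL were below all 4 PBS libraries, as in 8.63% of all tested genes. EV libraries overlapped RANKL libraries at 72 h and lay with PBS at 48 h. Dhcr7 fell to a mean of 8.02 ± 0.520 RPKM with EV+RANKL at 72 h, against 16.4 ± 2.13 RPKM in PBS (SD, n = 2 each). That log2 change was -0.94 ± 0.18 (SE; limma adjusted p = 0.00125). It was the single call among the 30 genes that held without each of its 4 libraries in turn (adjusted p up to 0.0167). In these bulk samples fewer cells with the transcript and less transcript per cell cannot be told apart.

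At 72 h Dhcr7 also fell with EV, with a log2 change of -0.68 ± 0.18 (SE; limma adjusted p = 0.0231), lost without EV 72 h replicate 1 or PBS 72 h replicate 2 (adjusted p up to 0.191). With RANKL at 72 h the change was -0.69 ± 0.18 (SE; limma adjusted p = 0.0179), lost without RANKL 72 h replicate 2 or PBS 72 h replicate 2 (adjusted p up to 0.183). The EV and the RANKL call at 72 h were each also lost with no filter on low values and with only the 8 libraries of that time. At 48 h it was -0.74 ± 0.18 (SE; limma adjusted p = 0.00925) with EV+RANKL, lost without EV+RANKL 48 h replicate 1 or PBS 48 h replicate 1 (adjusted p up to 0.0833). With RANKL at 48 h it was -0.68 ± 0.18 (SE; limma adjusted p = 0.0218), lost without any 1 of its 4 libraries (adjusted p up to 0.16). With EV at 48 h the Dhcr7 difference was -0.022 ± 0.18 (SE; limma adjusted p = 0.993) and was not called. EV+RANKL against EV at 48 h gave -0.72 ± 0.18 (SE; limma adjusted p = 0.0213), lost without any 1 of its 4 libraries (adjusted p up to 0.15). EV at 72 h against EV at 48 h gave -0.53 ± 0.18 (SE; limma adjusted p = 0.0387), lost without EV 48 h replicate 1, EV 48 h replicate 2 or EV 72 h replicate 1 (adjusted p up to 0.342). The comparisons with PBS at one time share their PBS libraries, and those with EV share their EV libraries, so these calls are not independent of each other. The summed macrophage markers, led by Lyz2, were lower and the summed osteoclast markers higher in all libraries with RANKL, as given above. The part of these markers in the Dhcr7 difference was not tested.

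**Figure D3:**
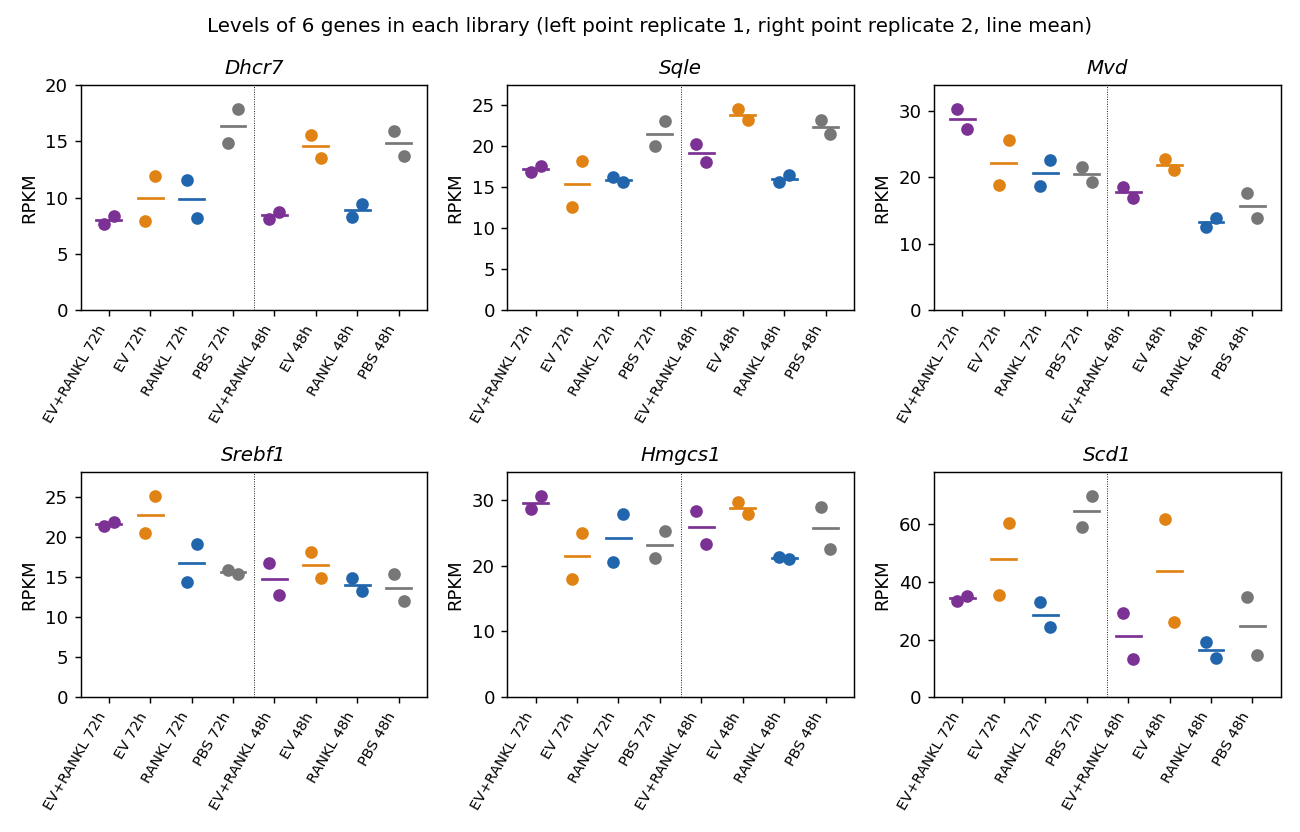
RPKM of Dhcr7, Sqle, Mvd, Srebf1, Hmgcs1 and Scd1 in every library, on linear axes from 0; the left point is replicate 1, the right point replicate 2 and the line their mean. Dhcr7 is below PBS in all 8 libraries with RANKL, Mvd is highest in EV+RANKL at 72 h, and the Scd1 replicates lie far apart in several groups.

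Sqle encodes squalene epoxidase, the first oxygen-requiring and a rate-controlling step of the sterol branch. Its levels at 72 h were 16.9 and 17.7 RPKM in EV+RANKL libraries, 12.6 and 18.2 RPKM in EV libraries, 16.3 and 15.6 RPKM in RANKL libraries and 20.1 and 23.1 RPKM in PBS libraries. At 48 h they were 20.3 and 18.1 RPKM in EV+RANKL libraries, 24.6 and 23.2 RPKM in EV libraries, 15.6 and 16.6 RPKM in RANKL libraries and 23.3 and 21.5 RPKM in PBS libraries. At 72 h every library with EV or RANKL was below both PBS libraries, as in 12% of all tested genes. Sqle fell with EV against PBS at 72 h, with a log2 change of -0.48 ± 0.14 (SE; limma adjusted p = 0.0312), lost without EV 72 h replicate 1 or PBS 72 h replicate 2 (adjusted p up to 0.23). At 48 h it fell with RANKL, with a change of -0.45 ± 0.14 (SE; limma adjusted p = 0.0398), lost without any 1 of its 4 libraries (adjusted p up to 0.215). The differences at 72 h of -0.30 ± 0.14 (SE; limma adjusted p = 0.0883) with EV+RANKL and -0.41 ± 0.14 (SE; limma adjusted p = 0.0506) with RANKL were not called. EV at 72 h against EV at 48 h gave -0.62 ± 0.14 (SE; limma adjusted p = 0.00677), lost without EV 72 h replicate 1 (adjusted p = 0.0592).

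Cyp51, Msmo1 and Hsd17b7 act in turn on lanosterol and its products, and each was called lower in EV at 72 h than in EV at 48 h. Cyp51, lanosterol 14-demethylase, had 14.3 and 15.0 RPKM in EV+RANKL libraries, 9.26 and 15.2 RPKM in EV libraries, 11.3 and 13.8 RPKM in RANKL libraries and 12.0 and 15.9 RPKM in PBS libraries at 72 h. At 48 h Cyp51 had 13.0 and 12.5 RPKM in EV+RANKL libraries, 19.3 and 17.0 RPKM in EV libraries, 9.60 and 11.4 RPKM in RANKL libraries and 14.9 and 12.5 RPKM in PBS libraries. The Cyp51 change of EV at 72 h against 48 h was -0.57 ± 0.19 (SE; limma adjusted p = 0.0387), lost without EV 48 h replicate 1, EV 48 h replicate 2 or EV 72 h replicate 1. Msmo1, the sterol C4-methyl oxidase, had 16.7 and 17.0 RPKM in EV+RANKL libraries, 10.6 and 15.0 RPKM in EV libraries, 15.2 and 15.2 RPKM in RANKL libraries and 15.8 and 18.6 RPKM in PBS libraries at 72 h. At 48 h Msmo1 had 18.6 and 18.1 RPKM in EV+RANKL libraries, 20.2 and 19.9 RPKM in EV libraries, 14.4 and 17.8 RPKM in RANKL libraries and 19.1 and 17.2 RPKM in PBS libraries. EV replicate 1 at 72 h was the lowest of all for Msmo1, EV replicate 2 was below every other library except RANKL replicate 1 at 48 h, and the change between the EV times was -0.63 ± 0.14 (SE; limma adjusted p = 0.00716), lost without EV 72 h replicate 1 (adjusted p = 0.0702). Hsd17b7, a ketoreductase of the same C4-demethylation, had 5.47 and 5.18 RPKM in EV+RANKL libraries, 2.79 and 5.11 RPKM in EV libraries, 4.73 and 4.87 RPKM in RANKL libraries and 4.70 and 6.22 RPKM in PBS libraries at 72 h. At 48 h Hsd17b7 had 5.47 and 5.54 RPKM in EV+RANKL libraries, 6.41 and 8.24 RPKM in EV libraries, 4.604 and 5.38 RPKM in RANKL libraries and 7.13 and 6.57 RPKM in PBS libraries. EV replicate 1 at 72 h had the lowest and EV replicate 2 at 48 h the highest Hsd17b7 value, and the change was -0.78 ± 0.18 (SE; limma adjusted p = 0.00917), lost without EV 48 h replicate 2 or EV 72 h replicate 1 (adjusted p up to 0.0898).

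Of the other sterol branch genes, none was called. Lss, lanosterol synthase, ranged over 4.45 to 7.37 RPKM, and Nsdhl, the decarboxylating sterol dehydrogenase, over 13.2 to 22.2 RPKM. For EV+RANKL against RANKL, Nsdhl had log2 changes of 0.33 ± 0.13 (SE; limma adjusted p = 0.177) at 72 h and 0.36 ± 0.13 (SE; limma adjusted p = 0.347) at 48 h, neither of them called. Ebp, the sterol isomerase also known as emopamil-binding protein, ranged over 11.5 to 16.1 RPKM. Its values in the 8 libraries with RANKL were all below those in the 4 PBS libraries, as in 8.63% of all tested genes. Its log2 change of -0.23 ± 0.13 (SE; limma adjusted p = 0.169) with EV+RANKL at 72 h was not called. Sc5d, the sterol C5-desaturase, ranged over 8.74 to 15.7 RPKM.

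Among the fatty acid genes Fads2 had the single call, and Scd1 had the widest range of all 30 genes. Fads2 encodes the delta-6 desaturase of polyunsaturated fatty acids, and had 110 and 133 RPKM in EV+RANKL libraries, 104 and 192 RPKM in EV libraries, 134 and 115 RPKM in RANKL libraries and 161 and 196 RPKM in PBS libraries at 72 h. At 48 h Fads2 had 127 and 110.1 RPKM in EV+RANKL libraries, 227 and 188 RPKM in EV libraries, 109.8 and 96.0 RPKM in RANKL libraries and 154 and 121 RPKM in PBS libraries. At 72 h the EV replicates of Fads2 lay far apart. EV+RANKL against EV at 48 h gave a log2 change of -0.80 ± 0.23 (SE; limma adjusted p = 0.0499), lost without any 1 of its 4 libraries (adjusted p up to 0.267). EV against PBS at 48 h gave 0.59 ± 0.23 (SE; limma adjusted p = 0.328), which was not called.

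Scd1 and Scd2 encode stearoyl-CoA desaturases, which make monounsaturated fatty acids. Scd1 at 72 h had 33.5 and 35.1 RPKM in EV+RANKL libraries, 35.4 and 60.6 RPKM in EV libraries, 32.9 and 24.3 RPKM in RANKL libraries and 59.1 and 69.9 RPKM in PBS libraries. At 48 h Scd1 had 29.3 and 13.4 RPKM in EV+RANKL libraries, 61.8 and 26.0 RPKM in EV libraries, 19.1 and 13.5 RPKM in RANKL libraries and 34.9 and 14.8 RPKM in PBS libraries. At 72 h all 4 Scd1 values with RANKL were below all 4 without it, as in 10.8% of all tested genes. At 48 h replicate 1 of Scd1 was the higher in every group and each group overlapped PBS. Its highest value was 5.22 times its lowest, and the log2 change with RANKL against PBS at 72 h was -1.16 ± 0.45 (SE; limma adjusted p = 0.0976). With EV+RANKL at 72 h it was -0.89 ± 0.45 (SE; limma adjusted p = 0.133), and between PBS at 72 h and at 48 h 1.45 ± 0.45 (SE; limma adjusted p = 0.212), none of them called. Scd2, which had the highest levels of the 30 genes, had 357 and 374 RPKM in EV+RANKL libraries, 252 and 342 RPKM in EV libraries, 293 and 303 RPKM in RANKL libraries and 293 and 315 RPKM in PBS libraries at 72 h. At 48 h Scd2 had 302 and 206 RPKM in EV+RANKL libraries, 341 and 217 RPKM in EV libraries, 229.5 and 201 RPKM in RANKL libraries and 225 and 134 RPKM in PBS libraries. Both EV+RANKL libraries at 72 h were above all the others for Scd2, as in 7.6% of all tested genes. The Scd2 difference from PBS there was 0.27 ± 0.26 (SE; limma adjusted p = 0.427). Scd1 and Scd2 are similar in sequence, so reads shared between them may move either level.

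Fasn encodes fatty acid synthase. At 72 h Fasn had 39.8 and 41.7 RPKM in EV+RANKL libraries, 36.1 and 43.4 RPKM in EV libraries, 39.2 and 39.0 RPKM in RANKL libraries and 41.9 and 48.0 RPKM in PBS libraries. In the 48 h libraries it had 36.8 and 34.3 RPKM in EV+RANKL libraries, 47.5 and 40.2 RPKM in EV libraries, 35.9 and 34.4 RPKM in RANKL libraries and 47.1 and 36.6 RPKM in PBS libraries. The EV values of Fasn overlapped those of PBS at both times. The differences from PBS were -0.14 with EV+RANKL, -0.18 with EV and -0.20 with RANKL at 72 h, none called. Acly, ATP-citrate lyase, ranged over 37.2 to 61.5 RPKM, with both EV+RANKL values at 72 h among the highest and a difference from PBS of 0.29 ± 0.13 (SE; limma adjusted p = 0.0969). Acaca, acetyl-CoA carboxylase, ranged over 5.76 to 8.85 RPKM, Elovl6, the elongase of palmitate, over 5.18 to 9.85 RPKM and Fads1, the delta-5 desaturase, over 78.5 to 128 RPKM, with no call.

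RANKL against PBS, which asks what the osteoclast signal alone does, called 1 of 29 genes at 72 h, Dhcr7, lower, where 18.9% of all tested genes were called and 9.13% were called lower. The median log2 change of the 29 genes was -0.19, against 0 over all tested genes, and the call was lost without RANKL replicate 2 or PBS replicate 2. RANKL at 48 h called 2 genes, Dhcr7 and Sqle, both lower, where 14.8% of all tested genes were called and 8.29% were called lower. The median at 48 h was -0.24 and 22 of them were negative, while the median over all tested genes was 0.061 and 60.8% of these were positive. The mevalonate genes had a median of -0.27 and the sterol branch genes one of -0.33 with all 9 tested genes negative, and the fatty acid genes had one of -0.001. Without any 1 of the 4 libraries the 2 calls at 48 h became 0, with a median between -0.36 and -0.09. With the replicate number as a block the count at 48 h was 4, all lower, both calls included, where 2216 of all 10365 tested genes were called.

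EV against PBS, which asks what the vesicles do without RANKL, gave opposite medians at the 2 times, which share no library, and the difference between times was not tested. At 72 h 3 of 29 genes were called, Srebf1 higher and Sqle and Dhcr7 lower, where 18.3% of all tested genes were called, 10.4% higher and 7.83% lower; 57.2% of those were higher, and 46.1% after quantile normalization. The median was -0.18 with 5 of 29 positive, against 0.033 over all tested genes. Without EV replicate 1 at 72 h limma called 0 of the genes and the median was 0.11, and without EV replicate 2 it called 17 and the median was -0.43. Without PBS replicate 2 it called 0. The sign of this median thus depended on which EV library was kept. At 48 h limma called 0 of 29 genes, and 1.29% of all tested genes were called. An unadjusted p under 0.05 was found for 6 of the 29 and for 1159 of all 10365 tested genes. There 27 of 29 log2 changes were positive with a median of 0.26, against 59% positive and a median of 0.028 over all tested genes. The median was 0.36 over fatty acid genes, 0.33 over mevalonate genes and 0.091 over sterol branch genes, and it was 0.12 without PBS replicate 2 and 0.34 without EV replicate 2 over all 29 genes. With the replicate block limma called 1 gene at 48 h, Scd2, higher, where 336 of all 10365 tested genes were called and 139 were called higher.

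EV+RANKL against PBS called 4 of 29 genes at 72 h, Mvd, Stard4 and Srebf1 higher and Dhcr7 lower, where 41.9% of all tested genes were called, 19.9% higher and 22.1% lower. The share of these genes called was below that of all tested genes. Their median was -0.031 against -0.022 over all tested genes, with 12 of 29 positive. By role it was 0.28 over the SREBP and sterol-sensing genes, -0.24 over mevalonate genes, -0.031 over sterol branch genes and -0.043 over fatty acid genes. Without EV+RANKL replicate 1 or PBS replicate 2 limma called 1 gene, and without EV+RANKL replicate 2 or PBS replicate 1 it called 2. EV+RANKL at 48 h called 1 of 29, Dhcr7 lower, where 22.1% of all tested genes were called and 10.9% were called lower, and the call was lost without EV+RANKL replicate 1 or PBS replicate 1. The median at 48 h was -0.036, and it was 0.093 without PBS replicate 1 and -0.13 without PBS replicate 2. With the replicate block the count at 48 h was 3, 2 higher and 1 lower, where 2932 of all 10365 tested genes were called and 1569 were called higher.

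**Figure D4:**
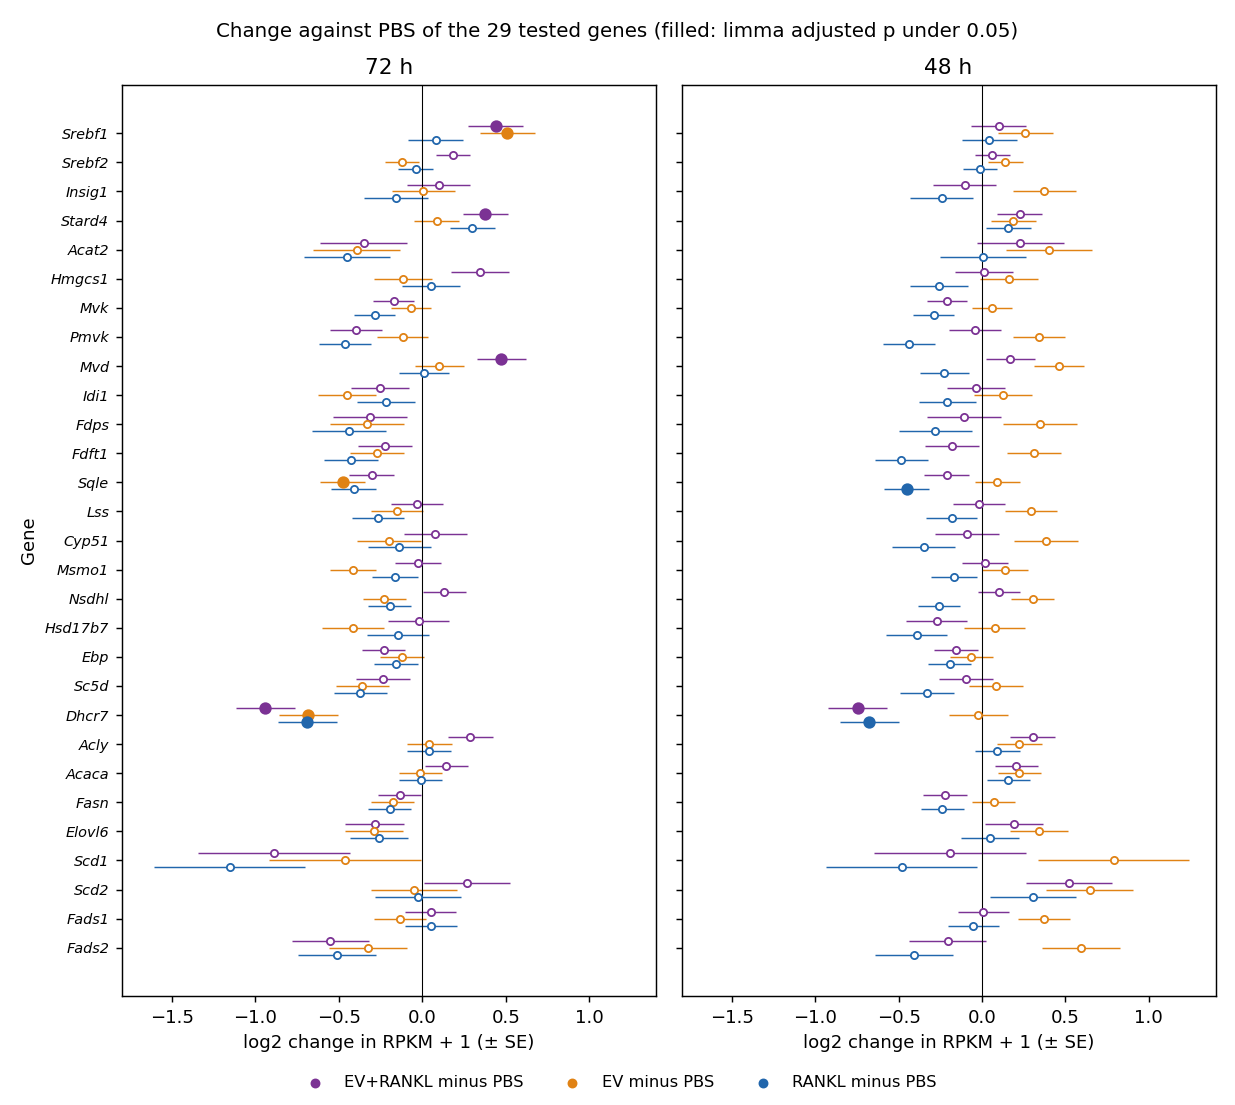
Log2 change against PBS (± SE, from limma) of the 29 tested genes at 72 h and 48 h, for EV+RANKL, EV and RANKL; filled points are called at an adjusted p under 0.05. Dhcr7 is filled in 5 of the 6 comparisons, and at 48 h most EV points lie to the right of 0 (27 of 29) and most RANKL points to the left (22 of 29).

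EV+RANKL against RANKL asks what vesicles add to RANKL. At 72 h limma called 0 of 29 genes, and 1.83% of all tested genes were called. Unadjusted p was under 0.05 for 3 of the 29 (Srebf1, Mvd and Nsdhl) and for 2185 of all 10365 tested genes. The median was 0.13 with 23 of 29 positive, against -0.019 over all tested genes, and without RANKL replicate 2 limma called 1 gene. In the 48 h libraries limma called 0 of 29, and 0.434% of all tested genes were called, 62.2% of them higher and 72.4% after quantile normalization. There 3 of the 29 (Pmvk, Mvd and Nsdhl) and 834 of all 10365 tested genes had an unadjusted p under 0.05. The median was 0.17 with 28 of 29 positive, against 0.002 and 51% over all tested genes, and it ranged from 0.13 to 0.24 with 1 library left out. With the replicate block limma called 0 of 29 at 48 h, where 188 of all 10365 tested genes were called. Mvd had log2 changes of 0.47 ± 0.15 (SE; limma adjusted p = 0.114) at 72 h and 0.40 ± 0.15 (SE; limma adjusted p = 0.4) at 48 h.

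EV+RANKL against EV, which asks what RANKL adds to the vesicles, called 0 of 29 genes at 72 h, where 22% of all tested genes were called. Of those called, 41.2% were higher, and 51.7% after quantile normalization. An unadjusted p under 0.05 was found for 5 of the 29 and for 3523 of all 10365 tested genes. The median was 0.12 with 22 of 29 positive. Without EV replicate 2 limma called 15 genes and the median was 0.42, and without EV replicate 1 it called 2 and the median was -0.095. At 48 h it called 2 of 29, Dhcr7 and Fads2, both lower, where 9.53% of all tested genes were called and 5.58% were called lower. The median at 48 h was -0.27 with 2 of 29 positive, against 0.03 over all tested genes, and without any 1 of the 4 libraries limma called 0 genes. With the replicate block the count at 48 h was 5, all lower, Dhcr7 and Fads2 included, where 1444 of all 10365 tested genes were called. The test of whether the EV effect depended on RANKL called 0 of 29 genes at either time, and 0.00965% of all tested genes at each. Unadjusted p was under 0.05 at 72 h for 4 of the 29 (Sqle, Nsdhl, Msmo1 and Srebf2) and for 959 of all 10365 tested genes. At 48 h it was so for 0 of the 29 and for 318 of all. With the replicate block this test called 0 of the 29 and 6 of all 10365 tested genes at 48 h. At 72 h the interaction was 0.58 ± 0.19 (SE; limma adjusted p = 0.35) for Sqle and 0.55 ± 0.18 (SE; limma adjusted p = 0.353) for Nsdhl. Its median over the 29 genes was 0.36, and it was 0.11 without EV replicate 1 and 0.63 without EV replicate 2.

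Between the times, EV+RANKL at 72 h against 48 h called 3 of 29 genes higher, Mvd, Srebf1 and Insig1, where 38.9% of all tested genes were called and 17.4% were called higher. It called 0 of them without EV+RANKL replicate 2 at 48 h or replicate 1 at 72 h, and 1 without replicate 2 at 72 h. EV at 72 h against 48 h called 7 lower, Sqle, Msmo1, Hsd17b7, Idi1, Cyp51, Dhcr7 and Fdft1, where 32.3% of all tested genes were called and 14.9% were called lower. All 7 belong to the mevalonate pathway or the sterol branch, which hold 17 of the 29 tested genes, and the sterol branch had a median of -0.53 with 0 of 9 positive. Without EV replicate 1 at 72 h limma called 0 of the genes, without EV replicate 2 at 72 h 17, and without EV replicate 1 or 2 at 48 h 3 and 2. RANKL at 72 h against 48 h called 1 higher, Mvd, where 6.03% of all tested genes were called and 3.45% were called higher, and 0 without RANKL replicate 1 or 2 at 48 h or replicate 2 at 72 h. PBS at 72 h against 48 h called 0, where 0.646% of all tested genes were called, and its median was 0.14 with 24 of 29 positive. In PBS 5 of the 29 and 1169 of all 10365 tested genes had an unadjusted p under 0.05.

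Beside the tests, libraries can be compared by whether values overlap. Between the 8 libraries with RANKL and the 4 PBS libraries, Dhcr7 and Ebp were lower and Stard4 higher without overlap, where 8.63% of all tested genes were lower and 9.13% higher in that way. Between the 4 libraries with RANKL and the 4 without it at 72 h, Scd1 was lower, against 10.8% of all tested genes. At 48 h Fdft1, Sqle, Hsd17b7, Mvk and Dhcr7 were lower, against 13.5% of all tested genes, and 0 of the set were higher, against 22.4%. Across both times no gene of the set separated the 8 libraries with RANKL from the 8 without it, where 3.83% of all tested genes were lower and 3.21% higher. None separated the 8 libraries at 72 h from the 8 at 48 h, where 0.945% of all tested genes were higher and 2.38% lower, or the 8 with EV from the 8 without, where 0.106% were higher and 0 lower. At 72 h alone, Srebf1 was higher in the 4 libraries with EV than in the 4 without and no gene of the set was lower, against 3.82% and 5.09% of all tested genes. Sqle and Dhcr7 were lower in the 6 libraries with EV or RANKL than in the 2 PBS libraries at 72 h and none was higher, against 12% and 15% of all tested genes. Mvd, Scd2 and Srebf2 were higher in the 2 EV+RANKL libraries at 72 h than in the other 14 libraries and none was lower, against 7.6% and 7.46%.

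Other genes of these pathways were counted from 5 lists. In SREBP processing all 10 genes were tested, and Insig2, Mbtps1, Mbtps2, Erlin1 and Pgrmc1 were among those called at least once. In EV+RANKL at 72 h against PBS 3 of the 10 were higher and 0 lower, where 19.9% of all tested genes were called higher and 22.1% lower. In sterol synthesis and uptake 19 of 22 genes were tested, and Lbr, Acat1, Tmem97, Nus1, Coq2, Pdss1, Npc2, Stard3 and Pcyt2 were among those called. Npc2, the lysosomal cholesterol carrier, rose with EV+RANKL at 72 h to 115 ± 19.8 RPKM, against 47.5 ± 6.22 RPKM in PBS (SD, n = 2 each), a log2 change of 1.26 ± 0.17 (SE; limma adjusted p = 0.000111). In that comparison this list had 4 of 19 genes higher and 3 lower, near or below the same shares.

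In the wider fatty acid list 21 of 29 genes were tested, and in EV+RANKL at 72 h against PBS 4 were higher and 5 lower, close to the 19.9% and 22.1% of all tested genes. The genes with a call in any comparison were Aacs, Acsl1, Acsl3, Acsl4, Acsl5, Acss2, Dgat1, Elovl1, Elovl5, Hacd1, Hacd2, Lpin1, Mcat, Me1, Mlxip and Tecr. Hacd2, a dehydratase of very long chain elongation, fell there with a log2 change of -0.87 ± 0.13 (SE; limma adjusted p = 0.000266), and at 48 h with EV+RANKL with one of -0.82 ± 0.13 (SE; limma adjusted p = 0.000558). Of 14 tested LXR targets and sterol efflux genes, 3 were higher and 3 lower in EV+RANKL at 72 h against PBS. There 19.9% of all tested genes were called higher and 22.1% lower. At 48 h against PBS, 1 was higher and 5 lower in EV+RANKL, where 22.1% of all tested genes were called and 10.9% were called lower. Between the times, 10 of the 14 were higher and 0 lower in EV+RANKL at 72 h against 48 h. In that contrast 17.4% of all tested genes were called higher and 21.5% lower. In EV between the times 8 were higher and 1 lower, where 17.4% of all tested genes were called higher and 14.9% lower. In RANKL 3 were higher and 0 lower, where 3.45% were called higher, and in PBS 0 were called. For PBS 3 of the 14 and 1169 of all 10365 tested genes had an unadjusted p under 0.05. Abca1, Abcg1, Apoe, Arl4c, Cyp27a1, Lpcat3, Lpl, Mylip, Nceh1, Nr1h2, Pltp, Soat1 and Tnfaip2 had a call in at least 1 comparison. Cyp27a1, a sterol hydroxylase, rose by 1.17 ± 0.18 (SE; limma adjusted p = 0.00122) in EV+RANKL and by 1.14 ± 0.18 (SE; limma adjusted p = 0.00299) in EV. Over these 14 genes the median log2 change between the times was 0.52 in EV+RANKL, 0.43 in EV, 0.40 in RANKL and 0.041 in PBS, against -0.021, 0.019, -0.017 and 0.007 over all tested genes. Differences between these groups were not tested. Of 18 tested genes of lipid breakdown and storage, 7 were higher and 4 lower in EV+RANKL at 72 h against PBS, where 19.9% and 22.1% of all tested genes were. Abhd5, Acadl, Acadm, Cd36, Cpt1a, Cpt2, Fabp5, Hadhb, Lipa, Lipe, Plin2, Plin3, Pnpla2, Pparg and Ppargc1b had a call in at least 1 comparison. Plin2, which coats lipid droplets, fell with RANKL at 48 h to 8.06 ± 0.615 RPKM, against 19.97 ± 0.993 RPKM in PBS, a log2 change of -1.21 ± 0.19 (SE; limma adjusted p = 0.000993). Of 210 calls over the 5 lists, 64 held without each library of the groups compared in turn, including those of Npc2, Hacd2, Cyp27a1 and Plin2 given here.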

How the data were processed

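RNA-seq of 16 libraries was deposited as 1 table of 20490 genes by mouse symbol. The submitters' processing notes name FastQC, HISAT2 and Partek and the human builds GRCh38 and hg38. No mouse build, annotation or counting step is named in them. The deposited values are on a log2 scale and were read as log2(RPKM + 1). With base 2, 56.9% of 21389 low values in 3881 genes came within 0.05 of a whole multiple of the worth of 1 read (median distance 1.09e-05), against 44.8% with base e and 20.7% with base 10. Read totals are unknown, so no counting interval is given, and 24 genes carry date-like names. Every sample column was mapped to a group.

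Genes with at least 1 RPKM in at least 2 libraries were tested (10365). A model of 8 group means over all 16 libraries was fitted with limma 3.58.1 in R 4.3.3 with a variance trend, and p-values were adjusted by Benjamini-Hochberg over all tested genes at 0.05. A count test had been planned for counts and was not used, since the values are not counts. On data simulated for EV against PBS at 48 h over 10365 genes, limma called 41.8% of 67 genes with a log2 change of 0.5, 92.5% of 67 with a change of 1 and 100% of 66 with a change of 2, and it made 10 false calls. The simulated noise was independent between libraries and genes, with 1 spread per gene in all groups. It lacked the shared replicate differences described below, so recovery and false calls in the real data may differ. Values in every library are printed for members called in at least 1 of 16 comparisons and for 8 genes given by name (Srebf1, Srebf2, Insig1, Hmgcs1, Sqle, Fasn, Scd1, Scd2). Alternatives were another pseudocount, no filter, quantile normalization, fewer libraries in the fit, a replicate block and leaving out each library of the groups compared. Libraries of the other groups, which share in the estimate of the spread, were not left out in turn. Same-numbered libraries deviated together at 48 h, where replicate differences correlated between groups at 0.14 to 0.476 in all 6 pairs of groups, so blocked counts stand beside the 48 h results; at 72 h the correlations were -0.037 to 0.529. The pairing comes from the replicate numbers in the labels, which name no shared culture or day. The members and lists were chosen with earlier results of these data known, and some listed genes are counted but not reported by name here. Promoter letters come from RefSeq windows on GRCm38.p6, which hold no entry for 7 of the 30 genes.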

Additional observations from a re-analysis of the deposited data

How the results depend on the processing

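Of the 24 single-gene calls, 23 were lost without at least 1 library and 3 held under all other settings. No called change of a single gene reversed its direction. The median over the 29 genes did change sign without EV replicate 1 at 72 h, to 0.11 for EV against PBS and to -0.095 for EV+RANKL against EV, and at 48 h to 0.093 without PBS replicate 1 and 0.059 without EV+RANKL replicate 2 for EV+RANKL against PBS, and to 0.055 without PBS replicate 2 for the interaction. Leaving out 1 library gave 0 to 1 called genes for EV+RANKL against PBS at 48 h, 0 throughout for EV+RANKL against EV and for RANKL against PBS at 48 h, 1 to 2 for EV+RANKL against PBS at 72 h, 0 to 1 for EV+RANKL against RANKL at 72 h, 0 to 15 for EV+RANKL against EV at 72 h, 0 to 17 for EV against PBS at 72 h and 0 to 1 for RANKL against PBS at 72 h. Between the times it gave 0 to 3 for EV+RANKL, 0 to 17 for EV and 0 to 1 for RANKL.

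With no filter on low values the called genes numbered 1 for EV+RANKL, 0 for EV and 0 for RANKL against PBS at 72 h, 0 for EV+RANKL against EV and 0 for RANKL against PBS at 48 h, and 3 for EV and 0 for RANKL between the times. Of all 19934 genes in that fit, 4446, 1062, 1565, 824, 1334, 2643 and 164 were called, in the same order. With only the 8 libraries of a time the called genes of the set numbered 2 for EV+RANKL, 0 for EV and 1 for RANKL against PBS at 72 h. Of all 10252 genes tested at 72 h, 2758, 39 and 826 were called, in the same order. The 1 gene called with RANKL there was not Dhcr7. At 48 h they numbered 2 for EV+RANKL, 3 for EV and 8 for RANKL against PBS, 1 for EV+RANKL against RANKL and 9 for EV+RANKL against EV. Of all 9982 genes tested at 48 h, 3748, 516, 3127, 277 and 2154 were called, in the same order. With only the 4 libraries compared, the times gave 8 for EV+RANKL, 0 for EV and 0 for RANKL. In these fits 4654 of 9875, 1312 of 10000 and 0 of 9800 tested genes were called. Quantile normalization gave 7 for EV+RANKL and 2 for RANKL against PBS at 72 h, 4 for EV+RANKL against EV at 72 h and 7 for EV+RANKL between the times. Of all 10365 tested genes it called 4576, 2045, 2633 and 3976, in the same order. It moved the median of all tested genes by at most 0.05. The cause of these moves was not tested.

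At 72 h replicate differences correlated at 0.398 to 0.529 among EV+RANKL, EV and PBS, and at -0.037 to 0.083 between RANKL and each of them. Whether the replicate numbers mark shared batches at 72 h cannot be told from this, so blocked counts are given for both times. With the replicate block the counts at 72 h were 9 for EV+RANKL, 5 for EV and 5 for RANKL against PBS and 5 for EV+RANKL against EV. At 48 h they were 3, 1, 4 and 5 in the same order. Between the times they were 7 for EV+RANKL, 13 for EV, 4 for RANKL and 2 for PBS. Over all 10365 tested genes the block called 5131, 2871, 2549 and 2903 at 72 h, 2932, 336, 2216 and 1444 at 48 h, and 4834, 4325, 1586 and 266 between the times, in these orders. With 2 libraries a group and unknown read totals, precision is limited, and a missed call does not show that a gene was unchanged.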
